A study of Mus musculus with 8 samples.

Results

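The nuclei described here are caudate putamen (dorsal striatum) nuclei that carried transcripts of somatostatin (Sst), neuropeptide Y (Npy) and neuronal nitric oxide synthase (Nos1). They were chosen by UMI counts (unique molecular identifiers, each 1 captured transcript). A nucleus entered with 500 or more genes detected, at least 2 UMIs of Gad1 and Gad2 together, at least 6 UMIs of Sst, Npy and Nos1 together with at least 2 of these 3 genes detected, and under 4 UMIs of Chat, Slc5a7 and Slc18a3 together. This gate found 144 of 61767 caudate putamen nuclei, out of 108519 nuclei in the series. These 144 nuclei are called members below. The study took single-nucleus RNA of C57BL/6JN mice from punches of 2 regions of the left hemisphere, the caudate putamen and the anterior hippocampus. The ages compared were 3 and 21 months, with 2 libraries per region and age, and no agent or allele is named in the labels for any group. Each library pooled nuclei of 1 male and 1 female, so the library is the replicate and a p-value measures the spread between libraries only. The caudate putamen libraries at 3 months gave 28 and 49 members, and those at 21 months gave 18 and 49.

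Striatal interneurons that make somatostatin, neuropeptide Y and nitric oxide are a sparse class of GABA-releasing cells with fine, wide axons. They are also called low-threshold-spiking or NADPH-diaphorase cells. Nitric oxide made by their synthase diffuses to nearby cells and activates soluble guanylyl cyclase there, and their peptides act on G protein-coupled receptors. They arise in the medial ganglionic eminence, where the transcription factors Nkx2-1, Lhx6 and Sox6 act in sequence to set their fate, while most striatal neurons are medium spiny projection neurons from another zone.

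The caudate putamen libraries held 141558546 to 214142905 UMIs each, and members of a library had a median of 12445 to 17272 UMIs per nucleus. Summed over members, a library gave 291830 to 877874 UMIs, and levels below are counts scaled to a sum of 1000000 UMIs (CPM). Of the barcodes of any library pair, 0.316% to 0.774% of those in the smaller library were shared, and no member barcode was. Comparison classes were cut in the same way from the same libraries. Medium spiny neurons (14321 nuclei) had 4 or more UMIs of Drd1, Drd2 and Adora2a and under 2 of Sst, Npy and Nos1. A Drd2 UMI was found in 92.4% of them and a Drd1 UMI in 28.3%, so their levels below are mostly those of Drd2 nuclei. Pvalb and Pthlh interneurons (58 nuclei) had 4 or more UMIs of those 2 genes, and cholinergic interneurons (220 nuclei) 4 or more of the 3 acetylcholine genes. Both classes were also cut to under 6 UMIs of Sst, Npy and Nos1 together. A further set of 178 nuclei met every condition of the member gate but the one on Gad1 and Gad2. They are called Gad-low nuclei, and their levels stand beside those of members because they outnumbered them.

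The 8 genes of the gate are described with no test, since they chose the nuclei. Their sum over Sst, Npy and Nos1 had a median of 24 UMIs per member and ran from 6 to 126. At the edge of the gate, 4 nuclei had a sum of 6 and 3 nuclei that met the other conditions had a sum of 5. Another 6 nuclei were left out because only 1 of the 3 genes was detected, and none for acetylcholine genes. All 3 genes were detected in 114 members (79.2%), Sst and Nos1 without Npy in 18, Npy and Nos1 without Sst in 11, and Sst and Npy without Nos1 in 1.

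Nos1 was the steadiest of the 3 genes across libraries. It reached 1429 and 1381 CPM at 3 months and 1329.5 and 1352 CPM at 21 months. Sst reached 329.6 and 306 CPM at 3 months and 343 and 173 CPM at 21 months, and Npy reached 315 and 254 CPM at 3 months and 271 and 147 CPM at 21 months. The second 21-month library was lowest for both peptides, while the first 21-month library was highest for Sst and lay between the 3-month ones for Npy, so the ages overlapped. In that second 21-month library 29 of 49 members had all 3 genes, 14 had Sst and Nos1 without Npy, and 6 had Npy and Nos1 without Sst. In the first 21-month library all 18 members had all 3. Per 10000 UMIs of a nucleus, Nos1 had medians of 12.4 and 14.1 UMIs at 3 months and 15.1 and 13.6 at 21 months. Sst had medians of 3.83 and 2.73 at 3 months and 3.52 and 1.12 at 21 months. Single nuclei ranged widely. The highest Sst value of any member was 12.6 UMIs per 10000, and the highest Nos1 value, in another member, was 45.5.

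**Figure D1:**
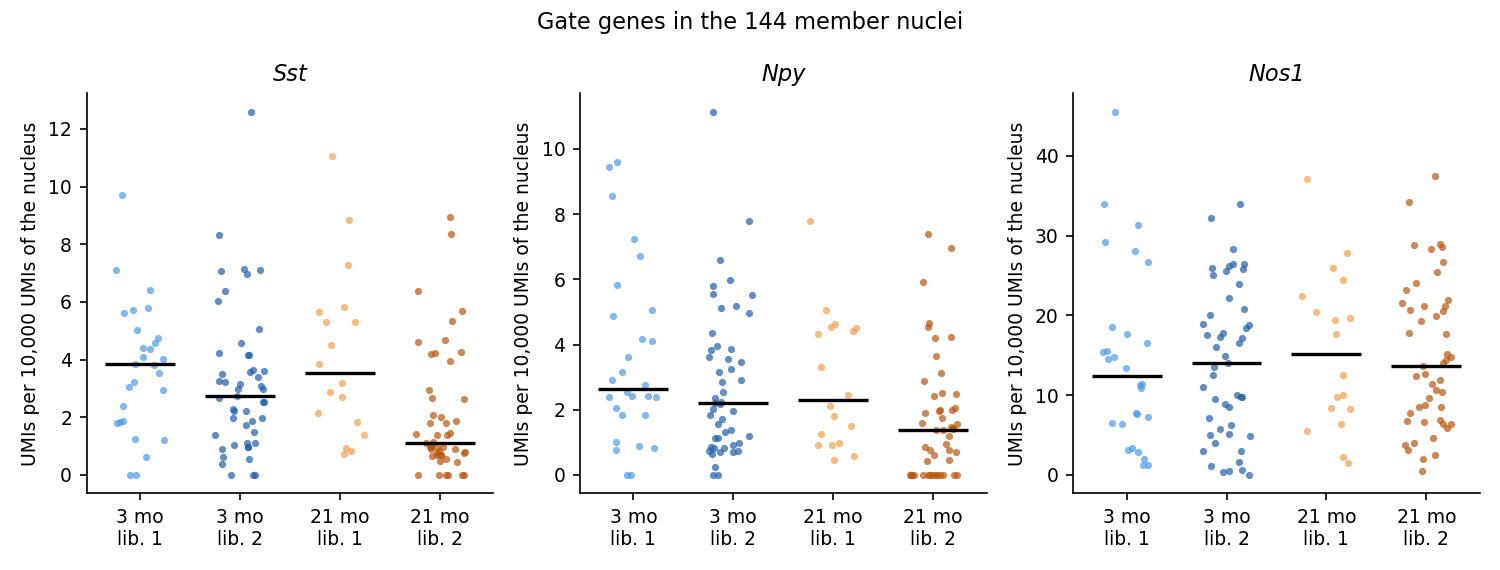
UMIs of Sst, Npy and Nos1 per 10000 UMIs of each member nucleus (y axis), by library (x axis; 28, 49, 18 and 49 nuclei), with the median as a bar. The Nos1 medians lie between 12.4 and 15.1 in all libraries, and the second 21-month library has the lowest Sst and Npy medians.

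Markers of this cell type outside the gate were high in members, which is a description, since the nuclei were cut on correlated genes. Tacr1, the substance P receptor, reached 1173 and 1312 CPM at 3 months and 1258 and 1135 CPM at 21 months. It lay at 5.61 to 8.97 CPM in medium spiny neurons and 0 to 6.97 CPM in Pvalb and Pthlh interneurons, but at 773 to 1209 CPM in cholinergic interneurons, so it set members apart from the first 2 classes and not from the cholinergic one. Sox6 reached 2438 and 2349 CPM at 3 months and 2515 and 2196 CPM at 21 months, against 309 to 706 CPM in Pvalb and Pthlh interneurons and 8.31 to 18.4 CPM in medium spiny neurons. Lhx6 reached 211 and 222 CPM at 3 months and 164 and 186 CPM at 21 months, and its level in Pvalb and Pthlh interneurons was 12.9 to 68.3 CPM. Chodl, a membrane lectin-like protein known from Sst and Nos1 cells of the cortex, reached 67.6 and 57 CPM at 3 months and 48 and 16.9 CPM at 21 months and was at 0 in Pvalb and Pthlh interneurons. These 4 genes were higher in members than in medium spiny neurons in every library.

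Counted by nucleus, 139 of 144 members had a Tacr1 UMI (96.5%), 140 a Sox6 UMI (97.2%), 124 an Lhx6 UMI (86.1%) and 53 a Chodl UMI (36.8%). With each nucleus thinned to 5000 UMIs (142 members deep enough, 2 left out), the shares were 93.7% for Tacr1, 96.5% for Sox6, 60.6% for Lhx6 and 16.9% for Chodl. The thinned shares in medium spiny neurons were 3.09%, 3.12%, 0.295% and 0.0492%. All 4 genes stood above these shares in members, and Chodl was a marker of part of them at this depth. The medium spiny class was cut to under 2 UMIs of Sst, Npy and Nos1, so its shares do not cover droplets that mix a member with another nucleus.

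Of the members, 3 had no UMI of Sox6, Tacr1, Lhx6 or Chodl. They entered the gate on Npy, with 8, 8 and 5 Npy UMIs, 1 Nos1 UMI each and at most 1 of Sst. Their sums of Gad1 and Gad2, 27, 53 and 19 UMIs, were the highest of all members, whose next highest was 16. They also held 76, 145 and 176 UMIs of Adarb2, a marker of interneurons from the caudal ganglionic eminence. The data on these 3 nuclei go against the label, and they came from the second library of each age, 2 at 3 months and 1 at 21 months. They are counted among the 144 members, and values without them are given where they moved a result.

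Other listed markers differed by neighbour. Grin3a, an NMDA receptor subunit, reached 371 and 465 CPM at 3 months and 555 and 384 CPM at 21 months, against 0 to 133 CPM in Pvalb and Pthlh interneurons and 225 to 302 CPM in cholinergic interneurons. After thinning it had a UMI in 77.5% of members and 59.1% of cholinergic nuclei, so like Tacr1 it was shared with that class. Satb1, a chromatin organiser of Sst cells elsewhere in the forebrain, reached 61.4 and 60.4 CPM at 3 months and 61.7 and 57.1 CPM at 21 months. Maf was low in members at 26.6 to 65.1 CPM and high in Pvalb and Pthlh interneurons at 204 to 417 CPM. Nkx2-1, which acts early in the lineage, was at 1.14 to 6.14 CPM in members. Cort, the cortistatin gene of cortical Sst cells, gave no UMI in members, which allows a share of up to 2.08% of members with a UMI and a level of up to 1.24 CPM.

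Several defining markers of other types were at or near 0. Pvalb gave a UMI in 1 member and Pthlh in 2, while Vip, Slc17a6, Neurod6, Gbx2 and the gate genes Slc5a7 and Slc18a3 gave none. The cholinergic list of 7 genes summed to 10.3 to 26.6 CPM in members and 705 to 1142 CPM in cholinergic interneurons. Of these, Chat, Slc5a7 and Slc18a3 cut both classes, so part of this contrast was set by the rule. Outside the gate, Isl1, Lhx8, Ecel1 and Gbx2 had a UMI after thinning in 2.11%, 4.23%, 1.41% and 0% of members. The shares in cholinergic nuclei were 27.3%, 39.5%, 41.4% and 0.455%. The glutamatergic list of 6 genes summed to 0 to 6.14 CPM. Other lists were well above 0. The list of 10 markers of interneurons from the caudal ganglionic eminence summed to 311 to 678 CPM in members, 173 to 225 CPM in Gad-low nuclei and 858 ± 95.7 CPM (SD, n = 4) in medium spiny neurons. Without the 3 members that lacked Sox6, Tacr1 and Lhx6 it summed to 311 to 422 CPM. The astrocyte list of 6 genes summed to 57.1 to 723 CPM in members and was at 108 to 276 CPM in medium spiny neurons, with the first 21-month library the highest and the second the lowest in members. The oligodendrocyte list of 6 summed to 89.1 to 270.1 CPM, the microglia list of 6 to 58.3 to 127 CPM and the Pvalb and Pthlh list of 6 to 75.3 to 109 CPM. Mbp, a myelin gene, had a UMI in 59.0% of both members and medium spiny nuclei. The part of such RNA in the results below was not tested beyond the fits that leave nuclei out. The list of 10 medium spiny markers was the highest of these in members. It summed to 2236 to 3584 CPM in members, 1889.6 to 2149.9 CPM in Gad-low nuclei and 7156 to 8542 CPM in medium spiny neurons, with no marker at 0 in any of them. Most of the sum in members was Pde10a. After thinning, Pde10a had a UMI in 98.6% of members and 96.6% of Pvalb and Pthlh nuclei, so it was not particular to medium spiny neurons.

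By ratio of the mean level in members to the highest mean level among medium spiny, Pvalb and Pthlh, and cholinergic nuclei, 5197 genes at 20 CPM or more in every library were ranked. Nos1 ranked 1, Npy 13 and Sst 16, ranks that the cuts favoured, since every comparison class was capped on the sum of these 3 genes. In the whole ranking 36 genes had a ratio over 10. The 10 highest outside the gate were Hhip, Gm38505, Nxph2, St6galnac2, Ankfn1, Sox2ot, Gm42695, B020031H02Rik, Gm20515 and Adgrg6. Hhip, a membrane inhibitor of Hedgehog ligands (chr8:79965851-80058006, GRCm38, as all coordinates here), reached 272 and 427 CPM at 3 months and 374 and 406 CPM at 21 months. It gave no UMI in Pvalb and Pthlh interneurons and 1.51 to 3.24 CPM in medium spiny neurons. Nxph2, a secreted ligand of alpha-neurexins (chr2:23321246-23401973), reached 229 and 338 CPM at 3 months and 195 and 293 CPM at 21 months against 0.109 to 0.203 CPM in medium spiny neurons. Adgrg6, an adhesion G protein-coupled receptor, reached 79.8 and 94.5 CPM at 3 months and 117 and 104 CPM at 21 months.

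Of those 10 genes, 4 lay in 1 stretch of chromosome 3. Sox2ot is a long non-coding gene that spans chr3:34104270-34682619 on the plus strand and contains Sox2, the gene of a transcription factor of neural stem cells and glia. It reached 7830.4 and 7809 CPM at 3 months and 8337 and 6466 CPM at 21 months, against 76.8 to 145 CPM in medium spiny neurons and 39.8 to 136 CPM in cholinergic interneurons. Gm38505 (chr3:34298172-34351712), Gm20515 (chr3:34427373-34435097) and Gm42695 (chr3:34565265-34572202) are non-coding genes inside it on the minus strand, and Gm38505 reached 2807 and 2810.2 CPM at 3 months and 2227 and 2148 CPM at 21 months. Sox2 itself was at 30.7 and 42.1 CPM at 3 months and 30.8 and 40.3 CPM at 21 months, against 1.85 to 4.10 CPM in medium spiny neurons. Whether counting used strand is not given in the sources used here, so reads of Sox2ot and of the genes opposite to it cannot be told apart. Sox2 lies inside Sox2ot on the same strand, so strand could not separate these 2 genes in any case. The Sox2 level is thus not shown apart from Sox2ot. Gad-low nuclei had the same pattern, with Sox2ot at 8609 to 9698 CPM, and the hippocampal nuclei of the same gate had 964 to 2147 CPM.

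**Figure D2:**
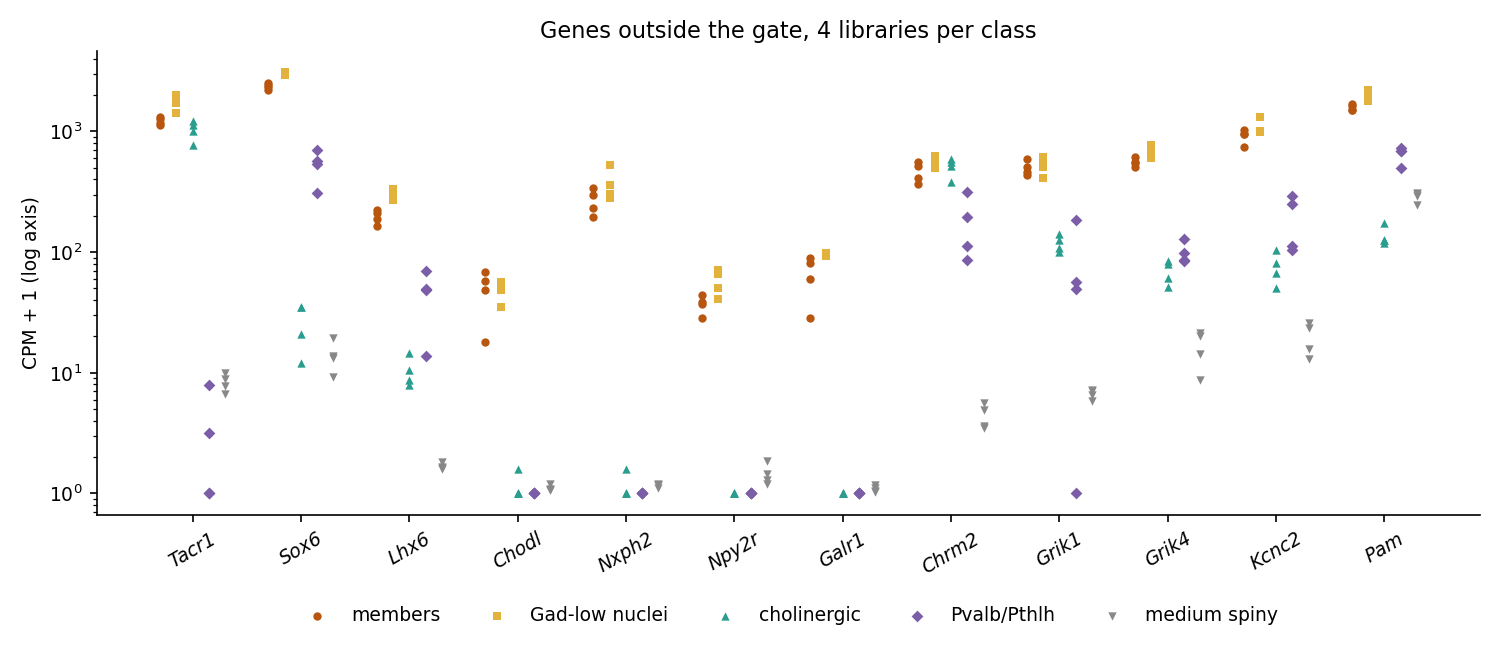
CPM + 1 on a log axis for 12 genes outside the gate (x axis), with 1 point per caudate putamen library for members, Gad-low nuclei, cholinergic, Pvalb and Pthlh, and medium spiny nuclei. Tacr1 and Chrm2 are also high in cholinergic nuclei, whereas Chodl, Nxph2, Npy2r and Galr1 lie near 1 in the other 3 classes.

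The 13 genes for peptide processing and granins summed to 3634 to 3972 CPM in members. The sum was 2323 to 2456 CPM in medium spiny neurons and 2189 to 2349.7 CPM in cholinergic interneurons, and it overlapped with Pvalb and Pthlh interneurons (2864 to 3679.8 CPM) and with hippocampal nuclei of the same gate (3762 to 4694 CPM). Pam, the enzyme that amidates the carboxyl end of neuropeptides, reached 1628 and 1516 CPM at 3 months and 1686 and 1515 CPM at 21 months. It was at 246 to 309 CPM in medium spiny neurons and 117 to 174 CPM in cholinergic and 500.3 to 726 CPM in Pvalb and Pthlh interneurons. Pam made up most of the excess of the sum over medium spiny and cholinergic nuclei. The sum thus does not show a higher level across the 13 genes. Scg2, a granin of dense-core vesicles, reached 75.7 and 100.2 CPM at 3 months and 75.4 and 88.3 CPM at 21 months against 26.1 to 29.2 CPM in medium spiny neurons and 68.3 to 251 CPM in Pvalb and Pthlh interneurons. Cadps2, which primes dense-core vesicles, reached 131 and 125 CPM at 3 months and 219 and 161 CPM at 21 months against 3.16 to 6.58 CPM in medium spiny and 53.4 to 112 CPM in cholinergic nuclei. Of the other listed peptide precursors, the tachykinin gene Tac1 was at 41.6 to 65.5 CPM in members and the enkephalin gene Penk at 51.4 to 79.7 CPM. Their levels in medium spiny neurons were 29.8 to 41.4 CPM and 224 to 299 CPM. Of that class 28.3% had a Drd1 UMI and 92.4% a Drd2 UMI, so these levels do not stand for medium spiny neurons with Drd1.

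Among receptors, the Npy autoreceptor gene Npy2r reached 43 and 36.5 CPM at 3 months and 37.7 and 27.3 CPM at 21 months and gave no UMI in cholinergic or Pvalb and Pthlh nuclei. Galr1, a galanin receptor, reached 59.4 and 88.9 CPM at 3 months and 27.4 and 80.5 CPM at 21 months and was at 0.0203 to 0.167 CPM in medium spiny neurons. Somatostatin receptors were scarce, with Sstr1 at 0 to 3.43 CPM and Sstr2 at 1.14 to 10.2 CPM. For acetylcholine, the inhibitory muscarinic receptor Chrm2 reached 553 and 515 CPM at 3 months and 363 and 408 CPM at 21 months against 2.51 to 4.60 CPM in medium spiny neurons. Kainate receptor subunits Grik1 and Grik4 were at 434 to 593 CPM and 509 to 609.9 CPM, against 4.80 to 6.24 CPM and 7.73 to 20.3 CPM in medium spiny neurons. Adra1a, a noradrenaline receptor, was at 132 to 202 CPM in members and 4.06 to 9.66 CPM in medium spiny neurons, with a like level in Pvalb and Pthlh interneurons (94.5 to 256 CPM).

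Ion channels and nitric oxide partners followed. Kcnc2, a fast potassium channel subunit, reached 946 and 1023 CPM at 3 months and 949 and 735 CPM at 21 months, against 12 to 25 CPM in medium spiny and 102 to 289.9 CPM in Pvalb and Pthlh nuclei. Cacna1g, a low-threshold calcium channel, was at 36.4 to 60.4 CPM in members, 0.537 to 1.16 CPM in medium spiny neurons and 3.42 to 7.02 CPM in cholinergic interneurons. The soluble guanylyl cyclase genes Gucy1a1 and Gucy1b1, targets of nitric oxide, were at 65.1 to 75.3 CPM and 55.3 to 119.9 CPM in members and at 101 to 140.5 CPM and 124 to 138 CPM in medium spiny neurons. Prkg1, the cGMP-dependent kinase, was at 363 to 607 CPM and 87 to 326 CPM. Erbb4, the neuregulin receptor of many interneurons, was at 536 to 828 CPM in members and 7485 to 13792 CPM in Pvalb and Pthlh interneurons.

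The condition on Gad1 and Gad2 removed more nuclei of this kind than it kept. In members Gad1 reached 90.1 and 112 CPM at 3 months and 95.9 and 123 CPM at 21 months. Gad2 reached 149 and 177 CPM at 3 months and 113 and 152 CPM at 21 months. Without the 3 members that lacked Sox6, Tacr1 and Lhx6, the second 3-month library gave 83.7 CPM for Gad1 and 123 CPM for Gad2. The second 21-month library then gave 120 and 137 CPM. Of the 144 members, 56 sat at the minimum of 2 UMIs. Among Gad-low nuclei 87 had no UMI of either gene and 91 had 1. The median depth was 10336.5 UMIs in Gad-low nuclei and 14352.5 in members. Slc32a1, the vesicular GABA transporter that the gate did not use, was at 15.2 to 29.7 CPM in Gad-low nuclei and 10.3 to 31.9 CPM in members.

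Of 4 genes of the class outside the gate, 3 were higher in Gad-low nuclei. Sox6 reached 2917 to 3116 CPM, Lhx6 269 to 332 CPM and Tacr1 1421 to 1989.5 CPM, each above the level of members in every library. Chodl overlapped, at 34.2 to 55.7 CPM in Gad-low nuclei and 16.9 to 67.6 CPM in members. Medium spiny genes were lower. Rgs9, a regulator of G protein signalling in striatal projection neurons, was at 201 and 133 CPM at 3 months and 151 and 148 CPM at 21 months in Gad-low nuclei, and at 299 and 236 CPM at 3 months and 274 and 414 CPM at 21 months in members. Meis2, a transcription factor of the same neurons, was at 73.9 to 152 CPM in Gad-low nuclei and 279 to 616 CPM in members, with no overlap. Of members, 32 (22.2%) had 4 or more UMIs of medium spiny genes, 15 of them in the second 21-month library, against 10 of 178 Gad-low nuclei (5.62%). Scrublet, which scores droplets that may hold 2 nuclei, called 27 members (18.8%) and 14 Gad-low nuclei (7.87%), against 12.7% to 22.3% of medium spiny nuclei by library. UMIs of Xist and of a Y-linked gene, which mark nuclei of the female and the male, occurred together in 49 members (34.0%), 39 Gad-low nuclei (21.9%) and 25.6% of medium spiny nuclei. In the second 21-month library this held for 22 of 49 members and 11 of 59 Gad-low nuclei. These shares, and those of 4 or more medium spiny UMIs, were counted without thinning. Members were deeper, with a median of 14352.5 UMIs against 10336.5 in Gad-low nuclei, so the shares were not set at equal depth. The part of such nuclei in the results below was not tested except where a fit leaves them out.

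**Figure D3:**
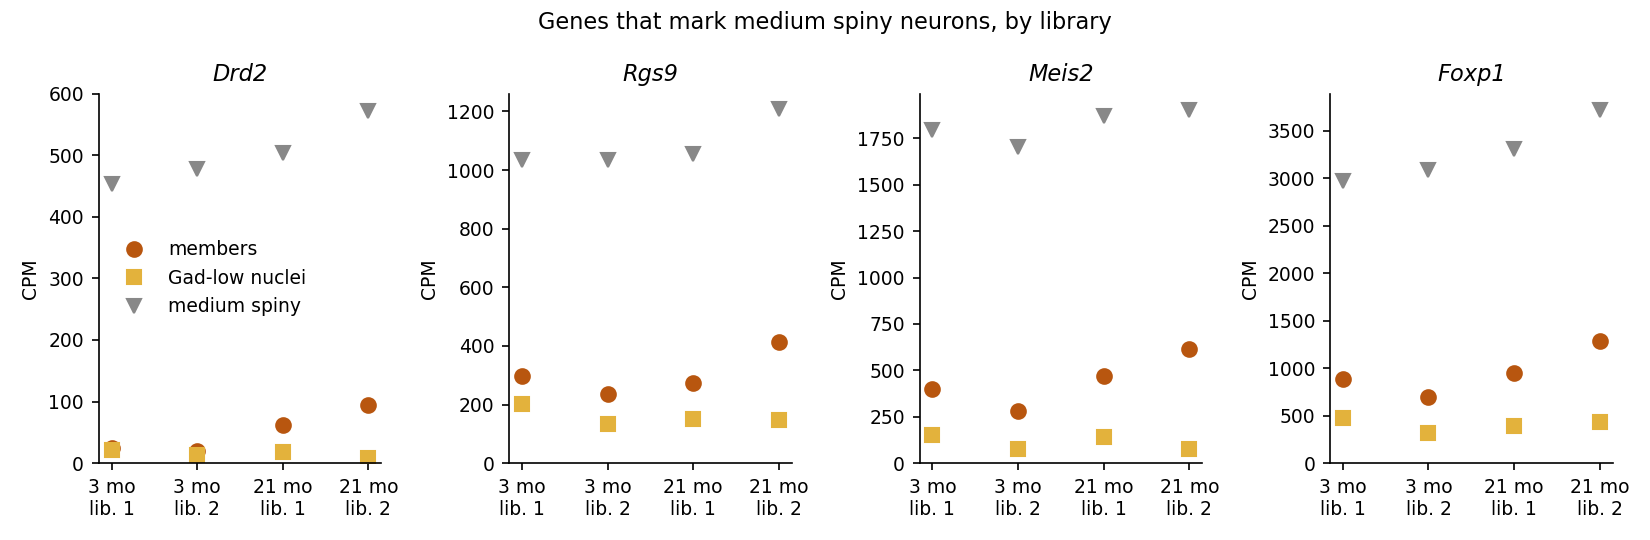
CPM (y axis) of Drd2, Rgs9, Meis2 and Foxp1, genes of medium spiny neurons, in each caudate putamen library (x axis) for members, Gad-low and medium spiny nuclei. Members lie above Gad-low nuclei for Rgs9, Meis2 and Foxp1 in every library, and the second 21-month library has the highest member level of all 4 genes.

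The first question of age is whether members became rarer. They made up 0.227% and 0.303% of nuclei in the 3-month libraries (95% Wilson intervals 0.157% to 0.327% and 0.229% to 0.401%) and 0.124% and 0.262% in the 21-month libraries (0.0782% to 0.195% and 0.198% to 0.346%). The intervals cover counting error only. The means were 0.265% ± 0.0541 (SD, n = 2) and 0.193% ± 0.0980 (SD, n = 2), a difference of -0.0721 percentage points. The ages overlapped, and the exact two-sided permutation test gave p = 0.667, where 2 libraries against 2 cannot go below 0.33. The difference rested on the first 21-month library: without it the difference was -0.00277. With nuclei thinned to 5000 UMIs, 32 members remained and the difference was 0.00346. That share counts only nuclei of 5000 or more UMIs. It left out 3189 and 3419 nuclei at 3 months and 4924 and 6264 at 21 months. The thinned and main shares thus have unlike denominators, and the turn of sign cannot be read apart from this. With Gad1 and Gad2 not required, 322 nuclei gave 0.534% ± 0.0332 (SD, n = 2) at 3 months and 0.498% ± 0.113 (SD, n = 2) at 21 months. 

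Expression at 21 against 3 months was tested in members with edgeR's quasi-likelihood test on counts summed per library. Outside the gate 7764 genes were tested and none passed a Benjamini-Hochberg adjusted p of 0.05 (0%). The smallest adjusted p was 0.129, and 408 genes had an unadjusted p under 0.05, 200 higher and 208 lower at 21 months. DESeq2 also called 0 genes, with 76 at an unadjusted p under 0.05. Both 21-month libraries lay above both 3-month libraries for 14.9% of the genes tested and below both for 18.7%. Leaving out the first or second 3-month library gave 14 and 9 calls, and leaving out the first or second 21-month library gave 35 and 11. Among the 24 genes named below, 4 and 2 passed in the first pair of fits and 12 and 1 in the second. Those were Drd2, Gm49906, Rxrg and Slc24a4 without the first 3-month library, and Gm49906 and Sgcd without the second. Without the first 21-month library they were Drd2, Gm49906, Rxrg, Slc25a13, Gprin3, Slc24a4, Thsd4, Abcg1, Eya4, Mkx, Lgals9 and Sgcd, and without the second only Gm13974. In these fits the lone library of an age is assumed to vary like the others. With no low-count filter 9 genes passed, 4 of them named below. Without the 3 members that lacked Sox6, Tacr1 and Lhx6, a fit added after seeing the data, 1 gene passed, Adarb2, and none of the 24. In the fit of all 4 libraries with the filter and all members, none of the values that follow passed the test.

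Among the 12 genes named for being higher at 21 months, the top one was Drd2, the dopamine receptor of indirect-pathway medium spiny neurons and cholinergic interneurons. It was at 24.6 and 19.4 CPM at 3 months and 61.7 and 94.8 CPM at 21 months in members (log2 fold change 1.97 ± 0.34 (SE), adjusted p = 0.129 by edgeR). Both old libraries lay above both young ones. In Gad-low nuclei the same libraries gave 21.8 and 13.3 CPM at 3 months and 18.3 and 9.01 CPM at 21 months, and in medium spiny neurons 454 and 477 CPM at 3 months and 504 and 572 CPM at 21 months. Rxrg, a retinoid receptor of the striatum, was at 26.6 and 14.8 CPM at 3 months and 58.3 and 58.4 CPM at 21 months (log2 fold change 1.61 ± 0.37 (SE), adjusted p = 0.535), and at 4.56 to 13.3 CPM in Gad-low nuclei. Gprin3, a G protein regulator, was at 100.3 and 90.0 CPM at 3 months and 158 and 196 CPM at 21 months. Its estimate turned negative with female nuclei alone, which numbered 4 and 19 at 3 months and 8 and 11 at 21 months. Meis2 and Foxp1, outside these 12 but on the list of transcription factors, were highest in the second 21-month library as well, at 401 and 279 CPM at 3 months and 469 and 616 CPM at 21 months and 886 and 698 CPM at 3 months and 946 and 1283 CPM at 21 months. Meis2 passed without the first 21-month library (adjusted p = 0.0377, edgeR). In medium spiny neurons Rxrg was at 81.7 to 135 CPM, Gprin3 at 354 to 427 CPM, Meis2 at 1704 to 1900.3 CPM and Foxp1 at 2975 to 3722 CPM, above members in every library. The members' summed medium spiny list was at 2778 and 2236 CPM at 3 months and 2937 and 3584 CPM at 21 months, with both old libraries above both young ones. Most of that sum was Pde10a in every library. Without Pde10a the first 21-month library would not lie above both 3-month libraries. Drd2 was carried by few members. It had a UMI in 33 of 144 (22.9%). Its UMIs summed to 12 and 17 at 3 months and 18 and 73 at 21 months. In each of the first 3 of these libraries 1 nucleus gave 7, 10 and 12 of them, and in the second 21-month library 7 nuclei gave 58. All of these nuclei also held 8 or more UMIs of Rgs9. With the gate at 4 UMIs in place of 6, Drd2 had a log2 fold change of 0.62 ± 0.83 (SE) and an adjusted p of 0.977 by edgeR. It passed with no low-count filter (log2 fold change 1.98, adjusted p = 0.000172, edgeR), as did Gm49906, Slc24a4 and Sgcd below. Without the first 3-month or the first 21-month library it passed as well (adjusted p = 0.00282 and 1.51e-05, edgeR). It did not pass without the second 3-month library (log2 fold change 1.77, adjusted p = 0.091, edgeR) or without the second 21-month library (1.53, adjusted p = 0.354). Leaving out members with 4 or more medium spiny or oligodendrocyte UMIs says nothing of Drd2, since that sum counts Drd2 itself. In that fit Gprin3, which the sum does not count, had a log2 fold change of 0.52.

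Of the other genes on the higher side, Gm49906, a long non-coding RNA (chr17:50339252-50398475), was at 38.9 and 51.3 CPM at 3 months and 95.9 and 153 CPM at 21 months (log2 fold change 1.54 ± 0.28 (SE), adjusted p = 0.129), with a log2 fold change of 2.21 ± 0.75 (SE) in Gad-low nuclei. Abcg1, a cholesterol exporter, was at 28.7 and 26.2 CPM at 3 months and 51.4 and 72.7 CPM at 21 months (log2 fold change 1.29 ± 0.33 (SE), adjusted p = 0.538). Its estimate was 0.84 ± 0.31 (SE) in Gad-low nuclei and 1.31 without members that carried medium spiny or oligodendrocyte UMIs. Slc25a13, a mitochondrial aspartate and glutamate carrier, was at 12.3 and 14.8 CPM at 3 months and 41.1 and 46.7 CPM at 21 months, but its Gad-low estimate was -0.43. The other 6 were Slc24a4, Thsd4, Poldip3, Sorcs2, Fras1 and Galnt17, with log2 fold changes of 0.75 to 1.39. The estimate of Galnt17 turned negative with female nuclei alone, of which the first 3-month library gave 4. Slc24a4 had an estimate of 1.32, and 0.77 without the second 21-month library. Of the 9 of these 12 genes tested in Gad-low nuclei, 6 had the same sign there. The Gad-low nuclei come from the same libraries and animals, so they are not further replicates.

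Among the 12 genes named for being lower, Lgals9, which encodes the sugar-binding protein galectin-9, was at 26.6 and 37.6 CPM at 3 months and 13.7 and 3.90 CPM at 21 months (log2 fold change -2.23 ± 0.56 (SE), adjusted p = 0.538; chr11:78962974-78984946). The estimate was -1.25 without the second 21-month library, and -3.00 (adjusted p = 0.0099, edgeR) without the first. Its counts in members were 13 and 33 UMIs at 3 months and 4 and 3 at 21 months. In Gad-low nuclei it was at 55.7 and 45.5 CPM at 3 months and 13.7 and 14.4 CPM at 21 months, a log2 fold change of -1.80 ± 0.39 (SE), and in both sets every old library lay below every young one. Hspa8, the constitutive Hsc70 chaperone, was at 88 and 91.1 CPM at 3 months and 30.8 and 41.6 CPM at 21 months (log2 fold change -1.20 ± 0.29 (SE), adjusted p = 0.535), and its Gad-low estimate was -0.58 ± 0.34 (SE). Bc1, a brain cytoplasmic RNA that represses translation at synapses, was at 221 and 218 CPM at 3 months and 106 and 132 CPM at 21 months and had a Gad-low estimate of -0.68 ± 0.23 (SE). Sgcd, a sarcoglycan, was at 360.3 and 199 CPM at 3 months and 144 and 74 CPM at 21 months, against a medium spiny level of 305 and 225 CPM at 3 months and 252 and 178 CPM at 21 months. In Gad-low nuclei the ages overlapped, at 106 and 92.9 CPM at 3 months and 100 and 43.3 CPM at 21 months (log2 fold change -0.50 ± 0.32 (SE)). In members Sgcd had an estimate of -0.92 without the second 21-month library. It passed without the second 3-month library (log2 fold change -1.80, adjusted p = 1.85e-06, edgeR), without the first 21-month library (-1.85, adjusted p = 2.16e-06) and with no low-count filter (-1.41, adjusted p = 0.000172).

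Eya4, a transcription cofactor and phosphatase, was at 32.8 and 31.9 CPM at 3 months and 6.85 and 5.19 CPM at 21 months in members (log2 fold change -2.43 ± 0.53 (SE), adjusted p = 0.535). This was not seen in Gad-low nuclei, where it was at 4.84 and 22.7 CPM at 3 months and 4.56 and 27 CPM at 21 months with the ages overlapping. Mkx, a homeobox factor, was at 106 and 116 CPM at 3 months and 61.7 and 45.5 CPM at 21 months, and had a Gad-low estimate of 0.26. The other 6 were Gm30382, Thsd7b, Me1, Gm13974, Ptma and Chordc1, with log2 fold changes of -2.25 to -0.80. Gm13974 was at 47.1 and 29.6 CPM at 3 months and 0 and 10.4 CPM at 21 months. Without the second 21-month library it passed (adjusted p = 0.028, edgeR), with an estimate of -7.35 in place of -2.25. The 21-month library left in that fit held no UMI of it, so that estimate depends on the prior count and does not give the size of a difference. In the same fit Me1 had an estimate of -2.16 in place of -1.29 and Chordc1 of -1.94 in place of -1.29, and neither passed (adjusted p = 0.0687 and 0.209, edgeR). Of the 11 of these 12 genes tested in Gad-low nuclei, 6 had the same sign there. In medium spiny neurons all 12 genes of the higher set and 9 of the lower set had the same sign as in members, in the same libraries. The same-sign share over all genes was not computed. There 603 of 18334 genes passed (edgeR). They included Gm49906, Slc25a13 and Abcg1 (adjusted p = 0.0194, 0.0208 and 0.0455) and Gm13974, Hspa8 and Chordc1 (0.0211, 0.0284 and 0.0321). Eya4 passed with the other sign (log2 fold change 1.93, adjusted p = 0.0202).

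**Figure D4:**
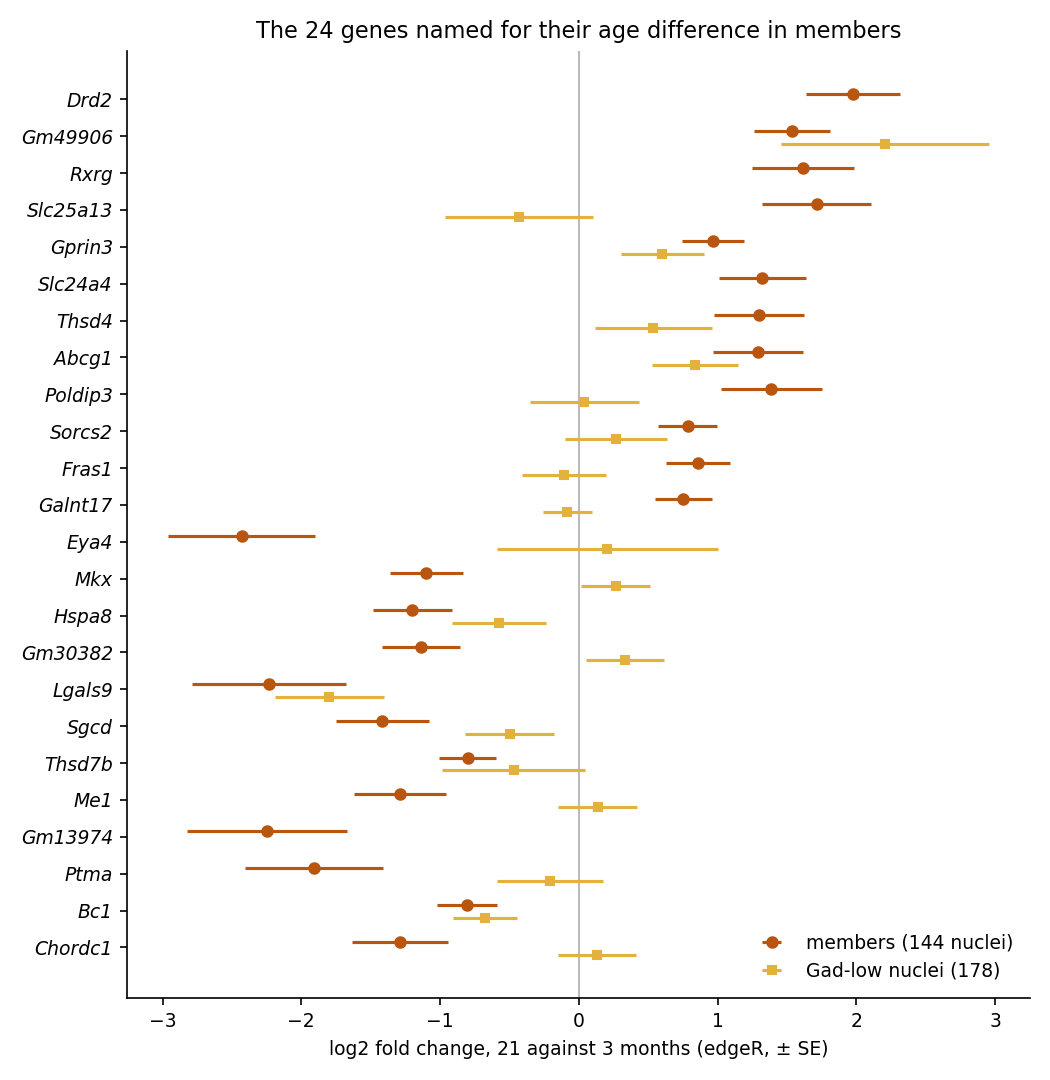
Log2 fold change at 21 against 3 months with its SE (x axis; edgeR) for the 24 named genes (y axis) in members and, where tested, in Gad-low nuclei of the same libraries. No gene passed the adjusted test, Lgals9, Hspa8, Bc1, Abcg1 and Gm49906 have the same sign in both sets, and the Gad-low points of Eya4, Mkx and Me1 lie on the other side of 0.

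The genes of the class itself gave the following values by age. Tacr1 (log2 fold change -0.02 ± 0.17 (SE), adjusted p = 1), Sox6 (log2 fold change 0.01 ± 0.16 (SE), adjusted p = 1) and Grin3a (log2 fold change 0.17 ± 0.21 (SE), adjusted p = 0.995) overlapped between ages. Lhx6 had a log2 fold change of -0.26 ± 0.20 (SE) and lay lower in both old libraries. Chodl was lower in both old libraries (log2 fold change -1.16 ± 0.40 (SE), adjusted p = 0.911). The second of them was the lowest, at 16.9 CPM, and was also the lowest for Sst and Npy. Without the first 21-month library Chodl had a log2 fold change of -1.82 and passed (adjusted p = 0.0298, edgeR). In Gad-low nuclei Chodl was at 55.7 and 47.4 CPM at 3 months and 50.2 and 34.2 CPM at 21 months.

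The listed gene groups were counted over the genes that passed the low-count filter, beside the 14.9% and 18.7% of all genes given above and a median log2 fold change of 0.00 over all genes. No gene of any list passed the test. Of 10 medium spiny markers 9 were tested, 2 were higher in both old libraries (Drd2 and Pde10a) and 1 was lower (Ppp1r1b), with a median of 0.21, against -0.12 in Gad-low nuclei. Pde10a, a phosphodiesterase, was at 1871 and 1452 CPM at 3 months and 2032 and 2453 CPM at 21 months. Of 25 chaperone genes 22 were tested, 8 were lower in both old libraries (Hspa8, Stip1, Cct3, Tcp1, Cct8, Pdia6, Pdia3 and Hspa4l) and 0 were higher, with a median of -0.21. The median of the same list was -0.17 in Gad-low nuclei. The summed level of the list was lower in both old libraries in every striatal class described here. It was 1273 and 1204 CPM at 3 months and 1083 and 973 CPM at 21 months in members and 1069 and 994 CPM at 3 months and 864 and 858 CPM at 21 months in medium spiny neurons. It was 1192 and 1046 CPM at 3 months and 837 and 878 CPM at 21 months in cholinergic and 1230.4 and 1086 CPM at 3 months and 815 and 819 CPM at 21 months in Pvalb and Pthlh interneurons. The classes share libraries. Stip1, which links Hsp70 to Hsp90, was at 61.4 and 46.7 CPM at 3 months and 30.8 and 31.2 CPM at 21 months. Tcp1, Cct3 and Cct8 are subunits of the cytosolic chaperonin, and Cct3 was at 49.1 and 45.6 CPM at 3 months and 44.5 and 16.9 CPM at 21 months. Hsp90aa1 and Hspa5 overlapped between ages, at 61 to 78.8 CPM and 26.2 to 34.3 CPM.

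**Figure D5:**
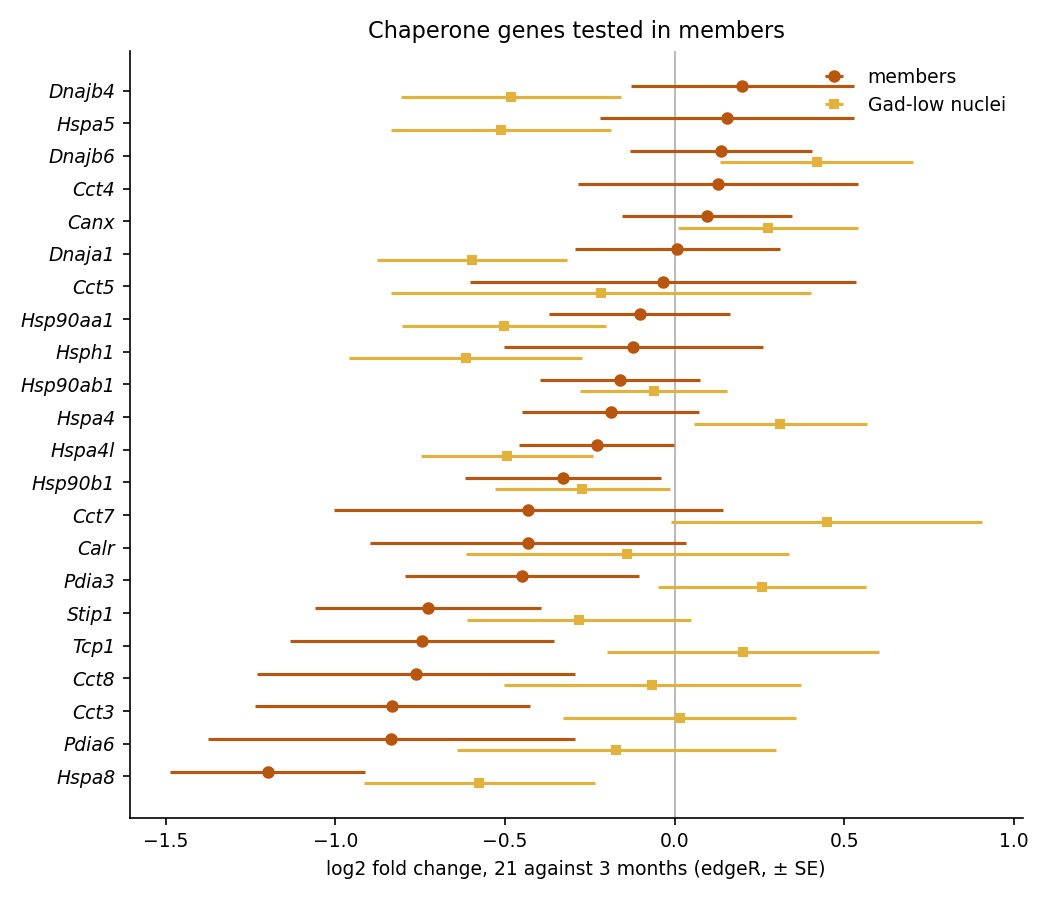
Log2 fold change at 21 against 3 months with its SE (x axis; edgeR) for the 22 chaperone genes tested (y axis) in members and Gad-low nuclei. Hspa8 has the lowest value in members, the median of members is -0.21, and no gene passed the adjusted test.

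Of 48 voltage-gated channel genes 42 were tested, 10 were higher and 4 lower in both old libraries, with a median of -0.01. Kcnt2, a sodium-activated potassium channel, was at 125 and 101 CPM at 3 months and 223 and 139 CPM at 21 months, and Cacna1i, a low-threshold calcium channel, at 53.2 and 50.1 CPM at 3 months and 72 and 79.2 CPM at 21 months. Of 24 glutamate receptor genes 22 were tested, 2 were higher and 4 lower, and Gria2, which sets the calcium permeability of AMPA receptors, was at 1161 and 1192 CPM at 3 months and 966 and 983 CPM at 21 months. Of 15 GABA receptor genes 14 were tested, 2 higher and 4 lower. Of 28 amine and acetylcholine receptor genes 9 were tested, 1 higher and 2 lower, and Chrm2 had a log2 fold change of -0.42 ± 0.19 (SE) with an adjusted p of 0.931. Of 23 nitric oxide and cGMP genes 15 were tested outside the gate, 4 higher and 3 lower. Gucy1b1, the shared subunit of the nitric oxide receptor, was at 55.3 and 69.5 CPM at 3 months and 119.9 and 72.7 CPM at 21 months.

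Of 20 neuropeptide precursors 4 were tested outside the gate, 0 higher and 1 lower, and of 21 neuropeptide receptors 4 were tested, all overlapping. Of 13 genes for peptide processing and granins 12 were tested, 1 higher and 2 lower. The 1 was Cadps2, with a log2 fold change of 0.57 ± 0.22 (SE), and Vgf, a granin-like peptide precursor, was lower at 28.7 and 30.8 CPM at 3 months and 20.6 and 9.09 CPM at 21 months. Of 26 oxidative phosphorylation genes 17 were tested, 4 higher and 5 lower, and the complex I subunit Ndufa10 was at 49.1 and 47.8 CPM at 3 months and 6.85 and 28.6 CPM at 21 months. Of 37 adhesion and guidance genes 34 were tested, 3 higher and 7 lower, and Cntnap4, a neurexin-like protein of interneuron synapses, was at 457 and 477 CPM at 3 months and 391 and 310.4 CPM at 21 months. Of 26 interneuron transcription factors 16 were tested, 3 higher (Meis2, Foxp1 and Zfhx4) and 2 lower (Lhx6 and Nfia). The 3 on the higher side are all at higher levels in medium spiny neurons, Zfhx4 at 62.1 to 70.6 CPM there. Of 19 activity-regulated genes 6 were tested, 0 higher and 1 lower, which was Homer1 at 201 and 215 CPM at 3 months and 92.5 and 179 CPM at 21 months. Of 22 interferon and MHC class I genes only Stat2 was tested, at 24.6 and 36.5 CPM at 3 months and 17.1 and 23.4 CPM at 21 months.

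Whether the age difference of a gene in members differed from that in medium spiny neurons of the same libraries was tested as a class by age term, with library as a block. Genes used to cut either class were left out, and the genes named here were chosen after their values were seen. Of 17584 genes 24 passed (0.136%), 13 with a higher and 11 with a lower age difference in members. The 2 classes shared 1 estimate of spread, although a member sum held 18 to 49 nuclei and a medium spiny sum 2898 to 4717. The common dispersion, over the genes of each fit, was 0.0129 in this fit and 0.0201 in members alone, so these p-values may be too small. Npas3, for one, passed at an adjusted p of 0.000112 (edgeR) with members overlapping between ages and an unadjusted p of 0.515 in members alone. For Slc24a3, a sodium, calcium and potassium exchanger, members were at 618 and 812 CPM at 3 months and 870.4 and 809 CPM at 21 months and medium spiny neurons at 85.5 and 91.4 CPM at 3 months and 34.5 and 32.5 CPM at 21 months (log2 difference 1.65 ± 0.20 (SE), adjusted p = 7.22e-12, edgeR). Sfmbt2, a Polycomb-group protein, was at 63.5 and 118 CPM at 3 months and 99.4 and 122 CPM at 21 months in members and 9.42 and 10.7 CPM at 3 months and 1.80 and 2.91 CPM at 21 months in medium spiny neurons (log2 difference 2.37 ± 0.33 (SE), adjusted p = 8.49e-09, edgeR). For both genes members overlapped between ages while medium spiny neurons were lower in both old libraries. Kcnc2 was the reverse case, with medium spiny neurons at 14.7 and 12 CPM at 3 months and 25 and 22.5 CPM at 21 months and a log2 difference of -1.07 ± 0.20 (SE).

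Of the 24 genes 22 were also tested in members alone, and 10 of these overlapped between ages there, 4 were higher and 8 lower in both old libraries. Eya4 had the widest difference (log2 difference -4.48 ± 0.84 (SE), adjusted p = 0.000255, edgeR), with medium spiny neurons at 0.651 and 0.571 CPM at 3 months and 2.11 and 2.60 CPM at 21 months. Dpp10, an auxiliary subunit of potassium channels, was at 733 and 874 CPM at 3 months and 637 and 539 CPM at 21 months in members and 267 and 151 CPM at 3 months and 555 and 359 CPM at 21 months in medium spiny neurons (log2 difference -1.60 ± 0.20 (SE), adjusted p = 4.29e-11, edgeR). Necab1 and Sh3rf2, at 285 to 382 CPM and 233 to 286 CPM in medium spiny neurons, also passed, with a higher age difference in members. In the second 21-month library members stood at 122 and 104 CPM, against 24 to 34.3 CPM in the other 3. Their Gad-low levels in that library were 12.6 and 10.8 CPM. In members alone both passed without the first 21-month library (adjusted p = 2.64e-06 and 0.000411, edgeR). Leaving out the second 3-month library left 6 calls and leaving out the second 21-month library 11.

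Against Pvalb and Pthlh interneurons 5 of 7506 genes passed (0.0666%), all with a higher age difference in members. They were Slit3, Phactr1, Cacna1e, Dcc and Pde7b. Slit3, a guidance ligand, was at 350.1 and 247 CPM at 3 months and 363 and 548 CPM at 21 months in members and 240.5 and 83.4 CPM at 3 months and 6.97 and 34.1 CPM at 21 months in Pvalb and Pthlh nuclei (log2 difference 3.8 ± 0.64 (SE), adjusted p = 0.00151, edgeR). Only 7 and 4 such nuclei came from the 21-month libraries. Of these genes 4 were higher in medium spiny neurons than in members in every library, with Slit3 at 1584 to 1867 CPM and Pde7b at 2326 to 2648 CPM in medium spiny neurons. Cacna1e overlapped, at 747 to 1117 CPM in members and 972 to 1027 CPM in medium spiny neurons. Leaving out either 21-month library left 0 calls, and leaving out the second 3-month library gave 49.

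The same gate applied to the hippocampal libraries found 62 of 46752 nuclei, 19 and 21 at 3 months and 8 and 14 at 21 months. The regions share no libraries. Sox6 was at 4.51 to 239 CPM there, Tacr1 at 5.96 to 90.4 CPM and Nos1 at 117 to 352 CPM, while Erbb4 was at 3642 to 11546 CPM and Adarb2 at 684 to 3756 CPM. In members Adarb2 was at 61.4 and 334 CPM at 3 months and 10.3 and 243 CPM at 21 months, high in the second library of each age, and in Gad-low nuclei at 16 to 31.5 CPM. The members that lacked Sox6, Tacr1 and Lhx6 held 221 of its 293 UMIs in the second 3-month library and 176 of 187 in the second 21-month library. Without them Adarb2 was at 61.4 and 86.1 CPM at 3 months and 10.3 and 14.7 CPM at 21 months and had a log2 fold change of -2.44 (adjusted p = 0.0432, edgeR). In the 3-month libraries 1 nucleus then gave 13 of 30 and 32 of 72 UMIs, and the 21-month libraries held 3 and 11. The nuclei left out were chosen after their values were seen. At 21 against 3 months 0 of 6486 hippocampal genes passed with edgeR (0%), with 344 at an unadjusted p under 0.05, no other tool was run, and leaving out 1 library gave 26 to 144 calls. Lgals9 was at 4.35 and 0 CPM at 3 months and 0 and 0 CPM at 21 months in these nuclei, and Hspa8 at 68.2 and 90.4 CPM at 3 months and 90.2 and 25.8 CPM at 21 months with the ages overlapping.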

How the data were processed

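The deposited matrices hold raw UMI counts per gene and barcode, as the authors' pipeline wrote them, for 32285 genes. Per the file headers they come from Cell Ranger 6.1.2, and from 7.0.0 for the second 3-month caudate putamen library. The submitters' processing notes name Cell Ranger 4.0.0 and mm10. Whether intronic reads were counted is not given in the sources used here. The depth was 67205436 to 234811422 UMIs per library. Nuclei with 500 or more genes were kept, and members were cut by the gate in the report. The members and the gene lists were chosen with earlier results of these data known.

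Counts were summed per library and class. They were tested with edgeR 4.0.16 (TMM, filterByExpr, robust quasi-likelihood) in R 4.3.3, with Benjamini-Hochberg adjustment over all genes fitted, and gate genes were then left out. Steps were tested on simulated data. DESeq2 1.42.0 was an alternative, and Scrublet was run in scanpy 1.11.5. Other alternatives were RLE scaling, no low-count filter, a replicate block, each library left out, gates of 4 and 10 UMIs, thinning to 5000 UMIs, nuclei of 1 sex, and no Scrublet calls or nuclei with 4 or more medium spiny or oligodendrocyte UMIs. Fits with Gad1 and Gad2 not required, and without members lacking Sox6, Tacr1 and Lhx6, were added after seeing the data. The named genes were the 12 in each direction with the smallest unadjusted p, since none passed the adjusted p, whose old libraries both lay on 1 side of both young ones. The 10 genes most like the gate genes were ranked by their ratio over the other classes at 20 CPM or more, with a floor of 3 counts where a class had none. SE values derive from the F statistic. Coordinates are from GENCODE vM21 (GRCm38), in which all 490 genes looked up were found.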

Additional observations from a re-analysis of the deposited data

Results flagged for a closer look

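Eya4 and Sgcd lay lower in both 21-month libraries in members, where neither passed (adjusted p = 0.535 and 0.538, edgeR). Their age difference differed from that of medium spiny neurons by the class by age term of edgeR, whose p-values may be too small. The log2 difference was -4.48 for Eya4 and -1.08 for Sgcd (adjusted p = 0.000255 and 0.00648). Eya4 rested on 16 and 28 UMIs at 3 months and 2 and 4 at 21 months in members, and its estimate in Gad-low nuclei was 0.20. Sgcd was at 360.3 and 199 CPM at 3 months and 144 and 74 CPM at 21 months in members. In Gad-low nuclei its estimate was -0.50 ± 0.32 (SE), with the ages overlapping.

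Sorcs2 and Galnt17 had estimates of opposite sign in the 2 regions, and neither gene passed in either. Both old libraries were higher in striatal members (log2 fold changes 0.78 and 0.75), and both were lower in the hippocampal nuclei of the same gate (-1.35 and -1.71). The adjusted p was 0.589 for both in members and 0.76 and 0.834 in the hippocampal nuclei (edgeR). The difference between regions was not tested. For Galnt17 the Gad-low estimate was -0.08, and the estimate in members was 0.36 with the gate at 4 UMIs. Hippocampal Galnt17 was at 606 and 185 CPM at 3 months and 158 and 85.5 CPM at 21 months.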

How the results depend on the processing

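The count of age calls in members was also 0 under RLE scaling, DESeq2, gates of 4 or 10 UMIs, thinning, 1 sex, no Scrublet calls, no nuclei with medium spiny or oligodendrocyte UMIs, and Gad1 and Gad2 not required. It was 9 with no low-count filter, 9 to 35 with 1 library left out, and 1 without the 3 members that lacked Sox6, Tacr1 and Lhx6. The cause was not tested. The replicate block gave 0 calls of 7764 genes and changed no call of a named gene. Replicate numbers were not taken to pair libraries: deviations of same-numbered libraries had a correlation of 0.0671. Of 351 estimates of the 24 named genes, 326 kept their direction and side of the threshold, 23 kept the direction and passed it (all without the filter or 1 library) and 2 turned sign with female nuclei alone, Gprin3 (-0.57) and Galnt17 (-0.18). The difference in member share turned to 0.00346 after thinning, and lay between -0.141 and -0.00277 with 1 library left out. The differences from medium spiny neurons numbered 6 to 25 with 1 library left out, and those from Pvalb and Pthlh interneurons 0 to 49. Hippocampal calls numbered 130 with no low-count filter and 26 to 144 with 1 library left out. Depth limits what 18 nuclei (291830 UMIs) can show: genes under about 10 CPM gave few UMIs in that library. Thinned fits tested 647 genes, and fits of female and male nuclei 2322 and 3979. In the female fit the first 3-month library held 4 nuclei and 49349 UMIs. Fits this small could hardly give a call, so their counts of 0 say little.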

Other observations

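Beside Tacr1, Pde1a, a calcium-dependent phosphodiesterase gene, was high in both members and cholinergic interneurons. It was at 519 to 911 CPM in members, 511 to 883 CPM in cholinergic interneurons, 8.23 to 54.5 CPM in medium spiny and 0 to 83.7 CPM in Pvalb and Pthlh nuclei. Unc5d, a netrin receptor, divided the same 2 interneuron classes, at 559.7 to 1199 CPM in members and 2.34 to 15.4 CPM in cholinergic interneurons, with 92.7 to 163 CPM in medium spiny neurons. Lhx8, a transcription factor of cholinergic neurons, was at 8.19 to 13 CPM in members and 113 to 139.9 CPM in cholinergic interneurons. Gad-low nuclei gave 663 to 917 CPM for Pde1a, 631 to 1055 CPM for Unc5d and 9.68 to 16 CPM for Lhx8. These genes were picked after their values were seen, and no difference was tested.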
